A study of Homo sapiens with 6 samples.

Results

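NCI-H460 is a human lung cancer cell line, and PRMT5 is an arginine methyltransferase that places symmetric dimethyl marks on histones and other proteins. The transcripts of 10 genes were followed in these cells: the receptor tyrosine kinase AXL, its ligand GAS6, and 8 other growth factor receptors, EGFR, ERBB2, ERBB3, FGFR1, FGFR3, FGFR4, MET and IGF1R. They were taken by gene name from the 58825 genes in the deposited tables. RNA was sequenced from 3 libraries of NC-shRNA cells, which carried a lentiviral hairpin described in the labels as directed at GFP, and from 3 libraries of PRMT5-shRNA cells, which carried a lentiviral hairpin against PRMT5. All cells of both groups were grown in RPMI-1640 and had been infected with virus, and the methods describe puromycin selection of the stable knockdown cells. The model is a single cell line, several PRMT5 hairpins were designed, and the labels do not name the one in the sequenced cells. The study calls the libraries of a group biological replicates, and neither it nor the labels say whether they came from separate infections, so p-values measure only the spread between these libraries.

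Receptor tyrosine kinases span the plasma membrane. Binding of a growth factor brings receptors together, the kinase domains phosphorylate one another, and adaptor proteins carry the signal to the RAS-MAPK and PI3K-AKT pathways. AXL belongs to the TAM family with TYRO3 and MERTK, and GAS6 bridges these receptors to phosphatidylserine on cell surfaces. In lung cancers EGFR, ERBB2, MET and FGFR genes can act as drivers, and AXL is known for its association with mesenchymal traits and with resistance to drugs that inhibit EGFR.

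None of the 10 transcripts passed the test across all genes, and 2 stood furthest from no difference. AXL was higher in every PRMT5-shRNA library than in any NC-shRNA library, at 17.7 ± 2.95 against 11.5 ± 1.3 CPM (mean ± SD, n = 3 per group), and the quasi-likelihood test of edgeR gave an adjusted p of 0.223. FGFR3 was lower in every PRMT5-shRNA library in TMM-scaled CPM, at 6.55 ± 0.926 against 9.0 ± 1.40 CPM (SD, n = 3). Its adjusted p in edgeR was 0.341, and its groups overlapped in the deposited values scaled by gene length. The most abundant receptors of the group, EGFR, MET and IGF1R, had fold changes between 1.08 and 1.09. CPM are deposited counts per 1000000 counts of a library whose total was scaled by edgeR's TMM method, and adjusted p-values use the Benjamini-Hochberg method over all 20295 genes tested.

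The DNA just upstream of AXL and FGFR3 is shown because these were the 2 genes with an unadjusted p under 0.05. Both stretches end at the base before the gene's first annotated base, come from the RefSeq promoter table (GRCh38.p14) and are written 5′ to 3′ on the plus strand. The AXL stretch lies at chr19:41218973-41219202 and the FGFR3 stretch at chr4:1793043-1793292. Capitals mark GGGCGG on either strand, the core of the GC box that Sp1 family factors recognise.
AXL: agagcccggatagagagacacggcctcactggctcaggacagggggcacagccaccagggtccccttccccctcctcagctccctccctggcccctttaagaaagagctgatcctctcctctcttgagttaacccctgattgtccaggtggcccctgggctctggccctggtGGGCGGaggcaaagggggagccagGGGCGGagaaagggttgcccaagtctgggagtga
FGFR3: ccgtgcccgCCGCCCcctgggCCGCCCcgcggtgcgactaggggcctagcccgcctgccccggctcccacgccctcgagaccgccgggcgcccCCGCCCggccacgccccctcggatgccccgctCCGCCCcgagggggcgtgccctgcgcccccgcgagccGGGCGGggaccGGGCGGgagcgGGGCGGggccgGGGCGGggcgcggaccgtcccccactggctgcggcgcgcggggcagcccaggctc
The 230 bases before AXL held 2 such boxes and had a GC content of 63.9%, and the 250 bases before FGFR3 held 8 and had a GC content of 86.8%. Across 35116 promoter windows of 250 bases in the same table, 42.6% held at least 1 such box on either strand. The letters TGANTCA, the core of the AP-1 site, and GGAATG, the core of the TEAD site, were in neither printed stretch on either strand, and 6.57% and 11.9% of the same windows held them. A match is a description of the letters and not a binding site, and no protein binding was measured here. A further AXL entry of the table, at chr19:41226505-41226754 inside the gene, held 0 GC boxes, 0 AP-1 cores and 1 TEAD core and is not printed. The promoter table held entries for 8 of the 10 genes and none for ERBB3 and FGFR1.

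The libraries held between 53531257 and 70518401 estimated counts. Counts gathered at multiples of 4, with 1214 to 1319 genes at exactly 4 counts per library against 283 to 546 at 3 or 5, so a count was not read as 1 fragment. As the check of the knockdown, PRMT5 stood at 133 ± 8.90 CPM against 43.2 ± 4.28 CPM in its knockdown (SD, n = 3; log2 fold change -1.62, standard error (SE) 0.0943, edgeR adjusted p = 0.0063). Epithelial keratin genes were abundant, with summed FPKM of the 6 epithelial markers between 344 and 361 in NC-shRNA but between 318 and 329 in PRMT5-shRNA libraries. EPCAM lay between 0.32 and 0.52 FPKM and CDH1 between 0.1 and 0.3 FPKM. EPCAM and KRT8 were lower in FPKM in PRMT5-shRNA libraries without overlap, and none of the 6 was higher without overlap. FPKM are fragments per 1000000 of a library, divided by gene length in kilobases.

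AXL was the gene with the largest positive log2 fold change of the 10. Its deposited counts were 790, 882 and 631 in NC-shRNA libraries 1 to 3, against 881, 1107 and 1213 in PRMT5-shRNA libraries 1 to 3. After scaling these were 11.8, 12.7 and 10.2 CPM against 16.1, 15.8 and 21.1 CPM. The lowest PRMT5-shRNA value thus lay above the highest NC-shRNA value, and PRMT5-shRNA library 3 was the highest of the 6. The log2 fold change was 0.61 (SE 0.153, 95% interval 0.25 to 0.98), a fold of 1.53 with an interval of 1.19 to 1.97. The unadjusted p of 0.00524 placed AXL at rank 476 of the 20295 genes and gave the adjusted p of 0.223 in edgeR. The exact two-sided permutation test gave p = 0.10, the smallest that 3 libraries against 3 allow. DESeq2 put AXL past the threshold, with a log2 fold change of 0.61 and an adjusted p of 0.0206. In that fit 303 genes were called higher and 227 lower, against 10 and 4 with edgeR. The study drew AXL in a heatmap made from these same libraries, so its difference is not independent evidence.

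**Figure D1:**
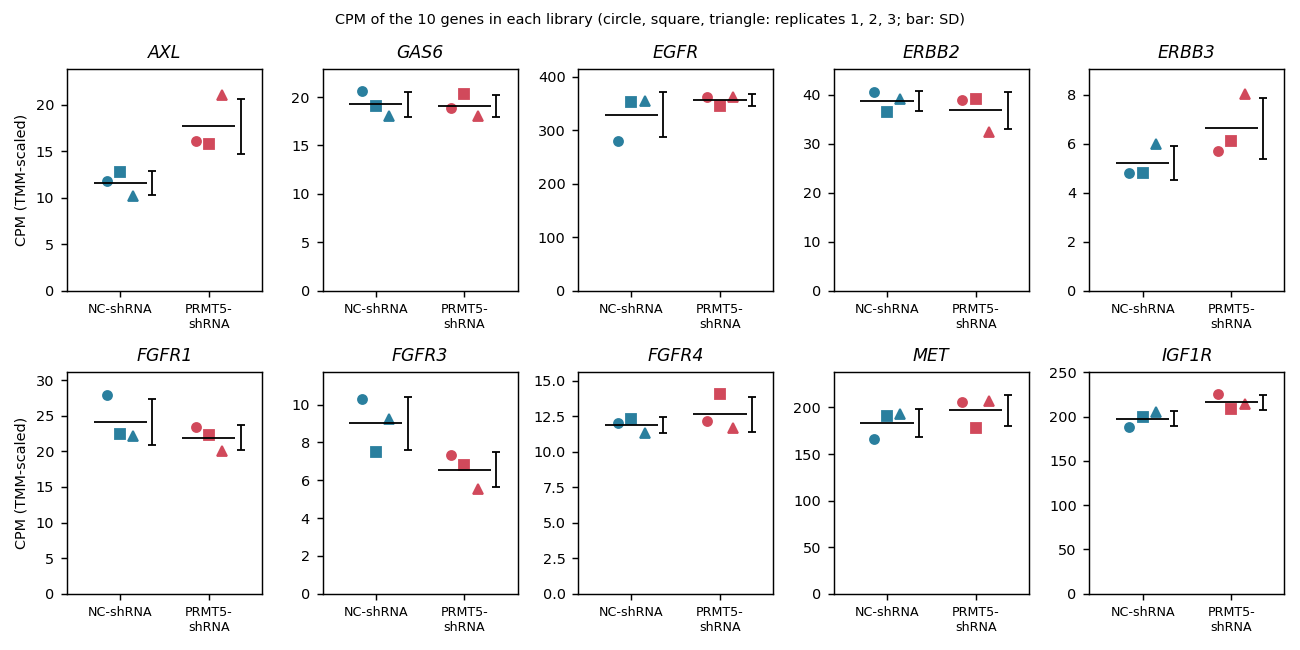
TMM-scaled CPM of each of the 10 genes in the 3 NC-shRNA and 3 PRMT5-shRNA libraries. Points are libraries and bars are group means with SD, on axes that start at 0. AXL spans 10.2 to 12.7 CPM in NC-shRNA against 15.8 to 21.1 in PRMT5-shRNA, without overlap.

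GAS6, the secreted ligand of AXL, had 1386, 1323 and 1122 counts in NC-shRNA against 1031, 1420 and 1037 counts in PRMT5-shRNA libraries. The scaled values were 20.6, 19.1 and 18.1 CPM against 18.9, 20.3 and 18.0 CPM. The groups overlapped fully, and the log2 fold change of -0.01 (SE 0.0978, 95% interval -0.25 to 0.22) had an adjusted p of 0.968 in edgeR. Its sign turned under some scalings, so no direction is given for it. The ratio of AXL to GAS6 in FPKM was 0.669, 0.782 and 0.658 with the control hairpin and 1.0, 0.914 and 1.37 with the PRMT5 hairpin. The other genes of the TAM system had smaller differences than AXL. TYRO3 had 57.9 ± 1.51 CPM in NC-shRNA against 55.9 ± 4.42 in PRMT5-shRNA cells (SD, n = 3; edgeR adjusted p = 0.825), and MERTK was scarce at 1.73 and 1.70 CPM (edgeR adjusted p = 0.967). PROS1, a second TAM ligand better known as an anticoagulant, had 55.4 ± 1.74 and 62.3 ± 4.82 CPM (SD, n = 3), a log2 fold change of 0.17 with an adjusted p of 0.414 in edgeR. None of these 3 genes had an unadjusted p under 0.05.

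The ERBB family gave small differences. EGFR, the receptor for EGF and amphiregulin, was the most abundant of the 10, with 280.4, 352.2 and 355.0 CPM in NC-shRNA against 362.0, 344.5 and 362.8 in PRMT5-shRNA libraries. NC-shRNA library 1 was the low value, and the other 5 libraries lay close together. The log2 fold change of 0.11 (SE 0.0966, 95% interval -0.11 to 0.34) had an adjusted p of 0.665 in edgeR. Without NC-shRNA library 1 it was 0.011. ERBB2, which has no known ligand of its own and pairs with the other ERBB receptors, had 40.5, 36.6 and 39.1 CPM against 39.0, 39.1 and 32.4 CPM. The values of the groups overlapped, and the log2 fold change of -0.07 (SE 0.0971, 95% interval -0.30 to 0.16) had an adjusted p of 0.796 in edgeR. ERBB3, a neuregulin receptor with little kinase activity of its own, had 4.80, 4.83 and 6.0 CPM against 5.72, 6.13 and 8.05 CPM. Only NC-shRNA library 3 reached the PRMT5-shRNA values, and the log2 fold change was 0.35 (SE 0.180, 95% interval -0.08 to 0.78, edgeR adjusted p = 0.461). Without PRMT5-shRNA library 3 it was 0.19. With 312 to 463 counts per library, ERBB3 had the widest interval of the 10.

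Of FGFR1, FGFR3 and FGFR4, the receptors of fibroblast growth factors among the 10, FGFR3 separated the groups in TMM-scaled CPM. FGFR3 had 690, 520 and 573 counts in NC-shRNA against 400, 476 and 318 counts in PRMT5-shRNA libraries. The scaled values were 10.3, 7.50 and 9.22 CPM against 7.33, 6.81 and 5.53 CPM. The highest PRMT5-shRNA value lay just below the lowest NC-shRNA value on this scale. In deposited FPKM the groups overlapped, at 1.73, 1.29 and 1.62 in NC-shRNA against 1.32, 1.21 and 0.99 in PRMT5-shRNA libraries. The log2 fold change of -0.46 (SE 0.171, 95% interval -0.86 to -0.05) had an unadjusted p of 0.0321 and an adjusted p of 0.341 in edgeR. That unadjusted p rose above 0.05 in edgeR without NC-shRNA library 1 (0.10), NC-shRNA library 3 (0.0740), PRMT5-shRNA library 2 (0.0586) or PRMT5-shRNA library 3 (0.0957). It did so as well in the edgeR likelihood ratio test (0.0543) and in limma on log2(FPKM + 1) (0.0631), where the log2 fold change was -0.23. FGFR1 had 27.9, 22.4 and 22.2 CPM against 23.4, 22.3 and 20.1 CPM, with overlapping groups and a log2 fold change at -0.14 (SE 0.122, edgeR adjusted p = 0.677), or -0.024 without NC-shRNA library 1. FGFR4 had 12.0, 12.3 and 11.3 CPM against 12.2, 14.1 and 11.7 CPM, also overlapping, and a log2 fold change of 0.09 (SE 0.114, edgeR adjusted p = 0.791), or 0.0028 without PRMT5-shRNA library 2.

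MET, the receptor of hepatocyte growth factor, had 166.3, 191 and 193 CPM in NC-shRNA against 206, 178 and 207 CPM in PRMT5-shRNA libraries. The groups overlapped, and the log2 fold change of 0.10 (SE 0.0886, 95% interval -0.10 to 0.31) had an adjusted p of 0.666 in edgeR. Without NC-shRNA library 1 it was 0.039. IGF1R, the receptor of the insulin-like growth factors, had 188, 199.5 and 205 CPM against 225, 209 and 214 CPM. All 3 PRMT5-shRNA values lay above all 3 NC-shRNA values, but the difference was small. Its log2 fold change was 0.13 (SE 0.0597, 95% interval -0.01 to 0.27), with an unadjusted p of 0.0699 and an adjusted p of 0.424 in edgeR. Over all genes the median log2 fold change went from -0.05 among the shortest genes to 0.06 among the longest when genes were split into 4 equal bins of the length implied by counts and FPKM. By that length IGF1R stood at percentile 96.7 and EGFR at 95.3, and a length correction gave a log2 fold change of 0.03 for each. For EGFR, MET and IGF1R the upper ends of the intervals lay at or below 0.34 on the log2 scale, below the 0.61 measured for AXL. The AXL interval of 0.25 to 0.98 overlapped all of these intervals, and whether the genes differ from AXL in their change was not tested.

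**Figure D2:**
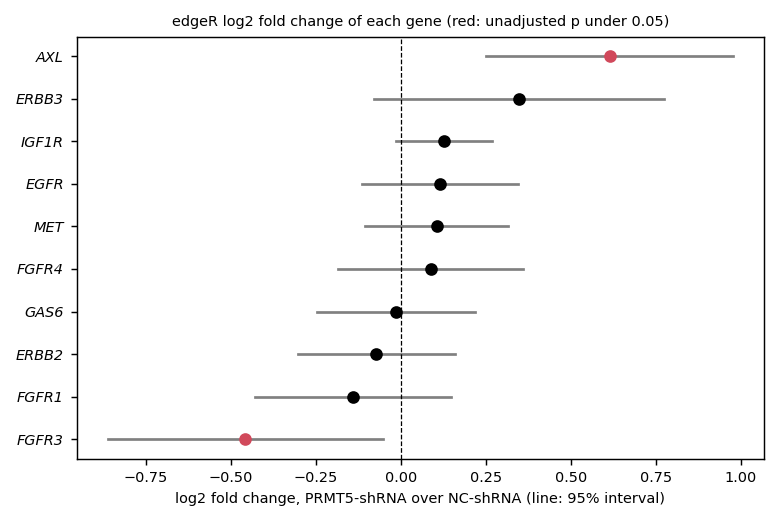
Log2 fold change of each gene, PRMT5-shRNA over NC-shRNA, from edgeR, with lines for the 95% interval. AXL at 0.61 and FGFR3 at -0.46 are in red for an unadjusted p under 0.05, and the intervals of the other 8 genes include 0.

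Counted over the 10 genes, 0 were higher and 0 lower by edgeR at the adjusted threshold of 0.05, and DESeq2 called 1 higher, AXL. Of all 20295 genes tested, edgeR called 10 (0.0493%) higher and 4 (0.0197%) lower, whereas DESeq2 called 303 higher and 227 lower. At an unadjusted p under 0.05, 1 gene was higher (AXL) and 1 lower (FGFR3), beside 6.54% and 6.29% of all genes tested. In TMM-scaled CPM the groups did not overlap for 2 higher genes, AXL and IGF1R, and for 1 lower gene, FGFR3. These counts stand beside 11.0% and 10.7% of all genes. With so few genes, no share above the background is read from these counts. The log2 fold change was above 0 for 6 genes and below 0 for 4, with a median of 0.10 against 0.01 over all genes tested.

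On the scale per gene length, EGFR and MET led and ERBB3 came last. The mean FPKM in NC-shRNA cells was 22.1 ± 3.25 for EGFR, 21.3 ± 2.13 for MET, 11.9 ± 0.787 for IGF1R, 3.14 ± 0.148 for ERBB2 and 2.68 ± 0.121 for GAS6 (SD, n = 3). It was 2.05 ± 0.0777 for FGFR4, 1.88 ± 0.195 for AXL, 1.55 ± 0.229 for FGFR3, 1.45 ± 0.165 for FGFR1 and 0.477 ± 0.0723 for ERBB3 (SD, n = 3). EGFR and MET overlapped, and each of FGFR4, AXL, FGFR3 and FGFR1 overlapped with its neighbour in this order, while the other steps separated all 3 libraries. In PRMT5-shRNA cells AXL had 2.75, 2.67 and 3.61 FPKM against 1.88, 2.08 and 1.69 in NC-shRNA cells and ranked 5 in place of 7, between ERBB2 and GAS6, whose libraries it overlapped. Relative to EGFR, AXL was at 0.103, 0.0882 and 0.0697 in NC-shRNA against 0.109, 0.112 and 0.142 in PRMT5-shRNA libraries. AXL was therefore a minor transcript beside EGFR in every library. Among 57 receptor tyrosine kinases with a value, 21 had a mean of at least 1 FPKM in NC-shRNA cells and 23 were under 0.1. EPHA2, an ephrin receptor, led at 33.6 FPKM, and EGFR, MET and IGF1R came next.

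**Figure D3:**
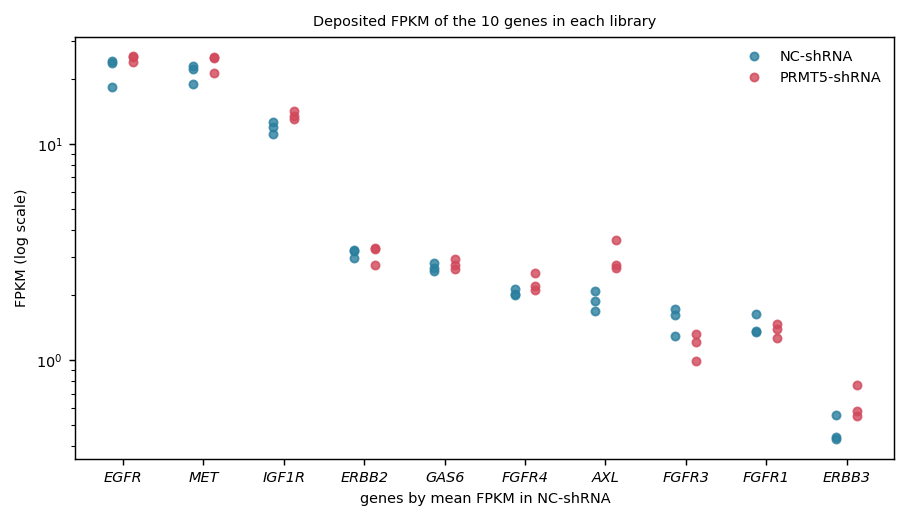
Deposited FPKM of the 10 genes in each library, on a log axis, ordered by the mean in NC-shRNA cells. Each point is a library. EGFR and MET lie near 20 FPKM, ERBB3 lies between 0.43 and 0.77, and the AXL groups lie apart, at 1.69 to 2.08 and 2.67 to 3.61.

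Growth factors that cells make themselves can act on their own receptors. Of 32 ligand genes of the 8 receptors besides AXL, 10 had no counts in any library, among them HGF, the ligand of MET, and IGF1, a ligand of IGF1R. No counts allows a level of up to 0.220 CPM per library, taking a floor of 12 counts (3 fragments if each gave 4 counts), which covers counting error only. The most abundant ligands per length in NC-shRNA cells were EPGN at 10.8 FPKM, FGF2 at 5.05 and AREG at 4.86, so EGFR and FGF receptor ligands were present. AREG, the EGFR ligand amphiregulin, had 8.73, 9.35 and 10.5 CPM in NC-shRNA against 12.2, 11.1 and 14.1 CPM in PRMT5-shRNA libraries. Its groups did not overlap, and its log2 fold change of 0.39 (SE 0.136, unadjusted p 0.0253) had an adjusted p of 0.321 in edgeR. NRG4, a neuregulin, had 8.61, 11.3 and 11.7 CPM against 6.39, 7.19 and 7.68 CPM, without overlap and with a log2 fold change of -0.57 (unadjusted p 0.0084, edgeR adjusted p = 0.252). Of 15 ligands tested, AREG was the 1 higher and NRG4 the 1 lower at an unadjusted p under 0.05, beside 6.54% and 6.29% of all genes tested, and the median log2 fold change was 0.08. Over the 19 alternatives 0 to 4 ligands were higher and 1 lower, and 0 were higher without NC-shRNA library 1, NC-shRNA library 2 or PRMT5-shRNA library 3.

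The genes around these receptors were followed in lists by role, and their counts stand beside the same 6.54% higher and 6.29% lower of all genes tested. Those shares are of the edgeR quasi-likelihood test, and under the alternatives they differed. Among the 33 other receptor tyrosine kinases tested, 5 were higher and 2 lower at an unadjusted p under 0.05, with a median log2 fold change of 0.12. Over the alternatives these were 3 to 7 and 1 to 3. EPHA2 and EPHA4 stand both in this list and in the MAPK output list. KDR, a receptor of vascular endothelial growth factor, had no counts in any NC-shRNA library but 12, 22 and 26 counts in PRMT5-shRNA libraries. It passed the filter on low counts only through the PRMT5-shRNA group, so it had to differ, and without it 4 of these receptors were higher. The PRMT5-shRNA mean of KDR was 1.70 times the highest NC-shRNA level that a floor of 12 counts per library allows. PRMT5-shRNA library 1, at 12 counts, lay at that floor itself, so this fold is not a lower bound. PDGFRB, a platelet-derived growth factor receptor, had 3.90 against 5.80 CPM (log2 fold change 0.57, edgeR adjusted p = 0.231). MST1R, the receptor most related to MET, had 22.7 against 18.3 CPM (log2 fold change -0.31, edgeR adjusted p = 0.271). ROS1 was at 0.513 against 0.110 CPM (log2 fold change -2.20, edgeR adjusted p = 0.223). It had 50, 26 and 26 counts in NC-shRNA but 8, 8 and 4 in PRMT5-shRNA libraries, the latter all below the floor of 12 counts. ROS1 passed the filter on low counts only through the NC-shRNA group, so it had to be lower. Its place among the 2 lower receptors is therefore not read as a result.

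Among 8 tested genes of the IGF binding proteins and the IGF2 receptor, 0 were higher and 1 lower at an unadjusted p under 0.05 (0 to 2 and 0 to 1 over the alternatives). IGFBP5, which binds insulin-like growth factors outside the cell, had 3.26, 4.08 and 4.23 CPM in NC-shRNA against 1.85, 1.43 and 1.56 CPM in PRMT5-shRNA libraries. Every PRMT5-shRNA value lay below every NC-shRNA value, and the log2 fold change of -1.26 (SE 0.191, unadjusted p 3.2e-04) had an adjusted p of 0.110 in edgeR. Among 7 tested co-receptors and decoys, FGFRL1 was the 1 lower gene and none was higher at that threshold (1 to 2 lower and 0 higher over the alternatives). FGFRL1, an FGF receptor that lacks the kinase domain, had 31.4 against 24.6 CPM (log2 fold change -0.35, edgeR adjusted p = 0.25).

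Of 31 tested adaptors and proximal effectors, 5 were higher and 0 lower at an unadjusted p under 0.05. In the likelihood ratio test 2 were higher, and with the length correction 3 were higher and 2 lower. GRB10, an adaptor that binds the insulin and IGF1 receptors and restrains their signal, had 45.4, 43.6 and 46.0 CPM in NC-shRNA against 62.0, 58.6 and 60.0 CPM in PRMT5-shRNA libraries. These groups stood well apart, and the log2 fold change of 0.42 (SE 0.0623, unadjusted p 2.8e-04) had an adjusted p of 0.110 in edgeR. PIK3CA, a catalytic subunit of PI3K, had 18.7 against 22.6 CPM (log2 fold change 0.28, edgeR adjusted p = 0.287). PIK3R2, a PI3K regulatory subunit, ranged from 1.65 to 43.8 CPM in NC-shRNA but from 0.278 to 11.4 CPM in PRMT5-shRNA libraries. Its groups overlapped, and its log2 fold change of -2.73 had an SE of 1.5 (edgeR adjusted p = 0.488). Of 16 tested negative regulators, 3 were higher and 1 lower at an unadjusted p under 0.05, and 1 to 6 and 0 to 2 over the alternatives. SOCS4, a suppressor of cytokine and receptor signals, was at 0.29 and CBLB, a ubiquitin ligase that acts on activated receptors, at 0.24 on the log2 fold scale (edgeR adjusted p = 0.286 and 0.320). LRIG1, a membrane protein that promotes the degradation of ERBB receptors, had 6.81 against 4.88 CPM (log2 fold change -0.48, edgeR adjusted p = 0.272).

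The MAPK output list holds genes commonly switched on by ERK signalling. At an unadjusted p under 0.05, 6 of its 10 genes were higher and 1 lower, beside 6.54% and 6.29% of all genes, and the median log2 fold change was 0.22. Over the alternatives 4 to 8 were higher and 1 lower, with 8 under total-count scaling and in the 3 limma fits. PHLDA1 had 37.5 ± 2.48 CPM in NC-shRNA against 53.2 ± 6.24 in PRMT5-shRNA cells (SD, n = 3), a log2 fold change of 0.51 (SE 0.103, unadjusted p 0.00182, edgeR adjusted p = 0.185). DUSP4, a phosphatase of MAP kinases, had 177 against 211 CPM (log2 fold change 0.25, edgeR adjusted p = 0.207). CCND1, cyclin D1, was the 1 lower gene, at 165 ± 7.56 against 140 ± 6.50 CPM (SD, n = 3; log2 fold change -0.24, edgeR adjusted p = 0.239). Groups did not overlap for 8 higher genes and 1 lower gene, beside 11.0% and 10.7% of all genes tested. AXL is often counted with targets of YAP and TAZ, the co-activators of TEAD factors, and of 21 other genes of that list 3 were higher and 1 lower at an unadjusted p under 0.05, with a median of 0.07. Under total-count scaling and in the 3 limma fits 8 of them were higher, and 0 were lower in limma, with the replicate block and without PRMT5-shRNA library 2. Over all genes, 1874 of 20295 were higher and 815 lower under total-count scaling at that threshold. In limma on log2(FPKM + 1) these were 1549 and 760 of 14707, and 2017 and 1068 of 32052 without the FPKM filter. GADD45A, a stress gene, had 18.6 against 26.3 CPM and PTPN14 160 against 194 CPM (log2 fold changes 0.50 and 0.28, edgeR adjusted p = 0.185 and 0.193). CCDC80 was the lower gene, at 46.9 ± 16.2 against 27.0 ± 6.19 CPM (SD, n = 3; edgeR adjusted p = 0.318). By the quasi-likelihood test of edgeR, no gene of any list was past the adjusted threshold of 0.05. DESeq2 called NRG4 and IGFBP5 lower and GRB10, PHLDA1, DUSP6, GADD45A, NT5E and PTPN14 higher. The likelihood ratio test called IGFBP5 and ROS1 lower and KDR higher, but ROS1 and KDR each had a group below the floor of 12 counts. Of the 20295 genes tested, DESeq2 called 303 higher and 227 lower, and the likelihood ratio test called 119 and 65.

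**Figure D4:**
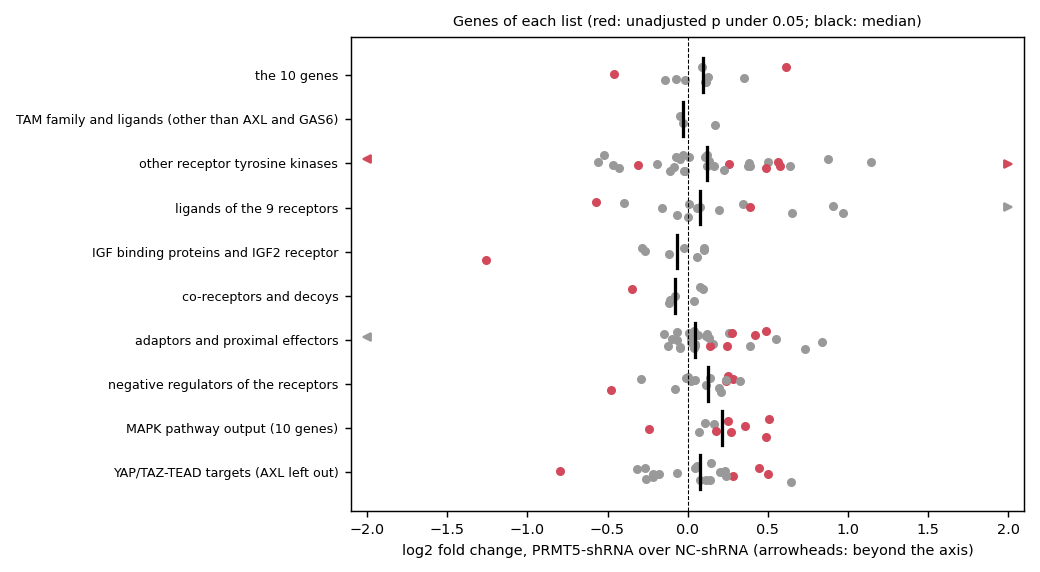
Log2 fold change, PRMT5-shRNA over NC-shRNA, of each tested gene in the 10 genes and in the lists around them. Points in red have an unadjusted p under 0.05, black bars are medians and arrowheads lie beyond the axis. The MAPK output list has the highest median, 0.22. The list of ligands holds no ligand of AXL.

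The genes whose log2 CPM followed AXL most closely over the 6 libraries were G2E3, SPRY4, PEX13, ANKRD22 and DPYD. Their Pearson correlations with AXL were 0.995, 0.989, 0.986, 0.986 and 0.984, among 9962 genes with a mean of at least 10 CPM, of which 36 exceeded 0.95. These points share 6 libraries that fall into the knockdown groups, so a gene that differs between the groups also correlates with AXL. SPRY4, an inhibitor of receptor signalling, is also in the MAPK output list, where its log2 fold change was 0.27 (edgeR adjusted p = 0.273). Among the 10 genes themselves the correlation with AXL was -0.91 for FGFR3, 0.71 for ERBB3 and -0.70 for ERBB2.

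Some markers of other cell types were detected, with ESAM at 12.2 to 14.4 FPKM, DCN at 5.05 to 7.32 and CD68 at 5.05 to 7.08, all above AXL. Of 11 endothelial markers, 5 were higher in FPKM in PRMT5-shRNA cells without overlap (PECAM1, CDH5, VWF, KDR and CLEC14A) and 1 was lower (ESAM). The shares of 11.0% and 10.7% of all genes tested are of TMM-scaled CPM after the filter on low counts. They are therefore not a matched background for these marker counts. The summed FPKM of the 11 ranged from 14.7 to 15.9 in NC-shRNA but from 14.5 to 15.5 in PRMT5-shRNA libraries, mostly ESAM. VWF, KDR, TIE1, EMCN, ICAM2, ECSCR and CLEC14A were at 0 in NC-shRNA libraries. Of 9 fibroblast markers, 2 were higher without overlap, with sums of 10.5 to 11.6 and 10.45 to 12.8 FPKM and with COL1A2 and PDGFRA at 0 in every library. Of 8 blood markers, 2 were higher without overlap, with sums of 6.35 to 8.42 and 6.77 to 8.44 FPKM and CD3E at 0 in every library. The part of these markers in the AXL values was not tested, nor can fewer cells with a transcript be told apart from less transcript per cell.

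In GENCODE 29 (GRCh38) AXL (ENSG00000167601) lies on the plus strand of chromosome 19 from 41219203 to 41261766, and FGFR3 on the plus strand of chromosome 4 from 1793293 to 1808872. EGFR lies on chromosome 7 from 55019021 to 55211628 and MET on chromosome 7 from 116672390 to 116798386, both on the plus strand. ERBB2 lies on the plus strand of chromosome 17 from 39687914 to 39730426, ERBB3 on the plus strand of chromosome 12 from 56076799 to 56103505, and FGFR4 on the plus strand of chromosome 5 from 177086886 to 177098144. FGFR1 lies on the minus strand of chromosome 8 from 38400215 to 38468834. IGF1R lies on the plus strand of chromosome 15 from 98648539 to 98964530 and GAS6 on the minus strand of chromosome 13 from 113820549 to 113864067. Exons of AXL overlap only AC011510.1 on the other strand, which had no counts in any library. GAS6 exons overlap GAS6-AS1, with 147 to 230 counts, and EGFR exons overlap EGFR-AS1, with 0 to 32 counts, both on the other strand. Also on the other strand, ERBB2 exons overlap PGAP3 (192 to 373 counts) and MIEN1 (571 to 974 counts). FGFR1 exons overlap LETM2 (109 to 185 counts) and AC087623.1 (0 to 26 counts), again on the other strand. ERBB3 exons overlap AC034102.2 on the same strand, which had no counts in any library. The methods name a stranded library kit, but how the counting treated strand is not given in the sources used here, so reads of such pairs may be shared. FGFR3, FGFR4, MET and IGF1R had no exon overlap.

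**Figure D5:**
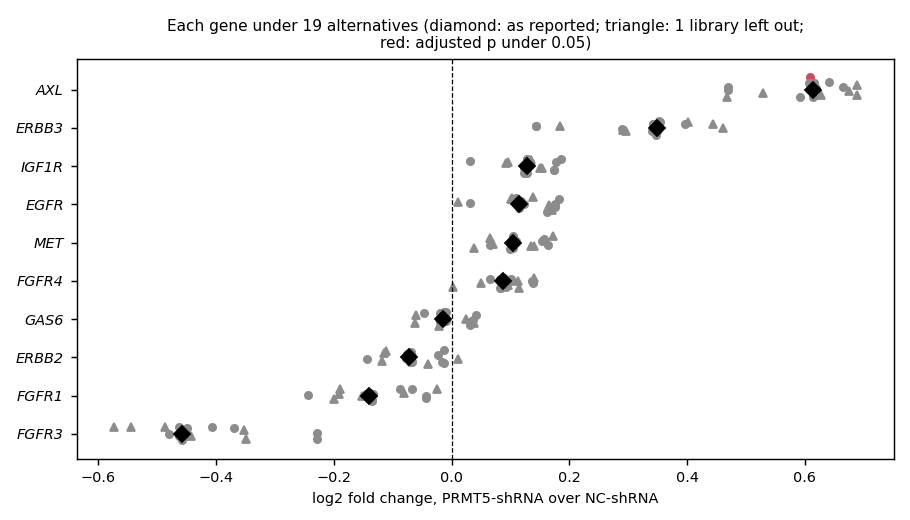
Log2 fold change of each gene in edgeR (black diamonds) and under 19 other settings (circles; triangles leave out 1 library), with settings at an adjusted p under 0.05 in red. AXL stays between 0.47 and 0.69, and its DESeq2 fit is the only red point.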

How the data were processed

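RNA of 6 NCI-H460 libraries, 3 per group, was sequenced, with groups and replicate numbers taken from the sample labels. The submitters' processing notes name cutadapt 1.9, HISAT2 2.0.4, StringTie 1.3.4d and the build GRCh38, whereas the methods name GRCm38, a mouse assembly. The methods name a stranded library kit, but the annotation release and the handling of strand in the counting are not given in the sources used here. Extraction is by Trizol in the labels and by an RNeasy kit in the methods. The authors deposited estimated counts by gene, not normalized, and FPKM values by gene, normalized for length and depth. All estimated counts as deposited were whole, and rounding left them unchanged. Of the 58825 gene identifiers, 58552 were found in GENCODE 29.

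Counts were scaled by TMM, filtered with filterByExpr by group (20295 genes left) and tested with edgeR 4.0.16 in R 4.3.3 by the quasi-likelihood test with Benjamini-Hochberg adjustment. Standard errors were derived from the F statistic. The methods name Ballgown, which needs transcript files not used here. Fits were tested on simulated data. Alternatives were other scalings and filters, DESeq2 1.42.0, the likelihood ratio test, limma 3.58.1 on log2(FPKM + 1) or log2(FPKM + 0.1) with a mean FPKM of at least 0.5, counts divided by 4, a length correction, a replicate block, and fits without each library in turn. None of the 6 pairs of libraries within a group agreed within sampling noise (at least 39.6 times the chi-square expected per gene). That expectation takes each count as 1 fragment, which was not assumed elsewhere, so the ratio may be too high.

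The 10 genes and the lists were chosen with earlier results of these data known. From each list the text names up to 2 higher and 2 lower tested genes with the smallest p, and for AXL the 5 genes of at least 10 CPM most correlated with it. Ligands named for their level, the genes without counts and the cell type markers were named besides. Depth was 53531257 to 70518401 counts per library, and floors cover counting error only. The floor of 12 counts, and the count without genes at 0 in a whole group, were chosen after seeing the data.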

Additional observations from a re-analysis of the deposited data

How the results depend on the processing

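AXL kept its direction in all 19 alternatives, with log2 fold changes between 0.47 and 0.69 and adjusted p-values between 0.0206 and 0.453. It passed an adjusted p of 0.05 only in DESeq2 (0.61), where 1 of the 10 genes was called higher. Leaving out each library gave 0.47 to 0.69, lowest without PRMT5-shRNA library 3. All alternatives reuse the same libraries, and the AXL groups did not overlap, so leaving out 1 library could not turn its direction. GAS6 turned to 0.036 under total-count scaling, 0.032 and 0.042 in limma on log2(FPKM + 1) and log2(FPKM + 0.1), and 0.032 without the FPKM filter, and ranged from -0.062 to 0.038 with a library left out. ERBB2 ranged from -0.12 to 0.011 with a library left out. At an unadjusted p under 0.05, 2 of the 10 genes were higher under total-count scaling and in the 3 limma fits, against 1. None (0) of the 10 was lower in the likelihood ratio test and the 3 limma fits, and 0 to 1 with a library left out. At that threshold 1874 of all 20295 genes were higher and 815 lower under total-count scaling, against 1328 and 1277 in the main fit. In limma on log2(FPKM + 1) they were 1549 and 760 of 14707. The groups did not overlap for 2 of the 10 genes under total-count scaling, in log2(FPKM + 0.1) and with the length correction, and for 3 to 5 with a library left out. Groups with fewer libraries separate more readily, and no share of all genes stands beside these counts, so nothing is read from them. The cause of the other shifts was not tested. Over all genes, calls higher and lower numbered 10 and 4 in edgeR, 303 and 227 in DESeq2 and 119 and 65 in the likelihood ratio test.

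The labels number replicates 1 to 3 in both groups. The deviations of same-numbered libraries from their group means in log2 CPM correlated at 0.035, -0.010 and -0.015. That shows no sign of a pairing, and none was assumed in the main fit. With the replicate block AXL had 0.61 (edgeR adjusted p = 0.383), 0 of the 10 genes passed, and 0 genes in all passed against 2382 at an unadjusted p under 0.05. Total-count scaling moved the median of all genes to 0.06. With 3 libraries a group, a permutation test cannot go below 0.10, and the AXL values rest on 631 to 1213 counts per library and those of ERBB3 on 312 to 463.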
